A study of Mus musculus with 2 samples.

Results

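Potassium channel genes were described in gastrocnemius, the main muscle of the calf. The members are the 94 protein-coding genes of the annotation whose symbol starts with Kcn, among 55536 genes of the gene table and 22015 nuclear protein-coding genes. The rule goes by gene name and type and uses no measured value. Total RNA was sequenced from male mice of strain B6CASTF1/J, hybrids of C57BL/6J and CAST/EiJ, supplied by The Jackson Laboratory. One label gives an age of 18 to 20 months and the age field itself is marked unknown. The series holds 1 group of 2 libraries, replicate 2 and replicate 1, each prepared from 300 ng of RNA to which synthetic ERCC control RNAs had been added. No animal was treated and no allele was altered, as far as the labels say. The labels number the replicates as biological and the males as 4 and 3, but 1 donor record stands for both. The spread between the libraries may therefore be technical.

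Potassium channels let potassium leave or enter the cell down its gradient, and in skeletal muscle they set the resting potential, end the action potential and couple excitability to metabolism. Voltage-gated (Kv) channels open on depolarisation, and inward rectifiers (Kir) hold the membrane near rest or, with a sulfonylurea receptor, respond to ATP. Calcium-activated channels open as calcium rises. Modifier subunits form channels only together with other Kv subunits, accessory subunits form no pore, and tandem-pore (K2P) channels carry background leak.

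The pore of every potassium channel is lined by a short stretch of residues called the selectivity filter, and its coding sequence is shown for subunits on which the results below turn. The sequences were read from the GENCODE M21 transcript with the longest coding sequence of each gene, on assembly mm10. The capitals mark the 5 filter codons.
Kcnj11 (chr7:46099487-46099519, minus strand, exon 1): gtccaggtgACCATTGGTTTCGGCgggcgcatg
Kcnj8 (chr6:142566439-142566471, minus strand, exon 3): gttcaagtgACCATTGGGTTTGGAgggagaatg
Kcnj2 (chr11:111072198-111072230, plus strand, exon 2): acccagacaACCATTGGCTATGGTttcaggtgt
Kcna7 (chr7:45409452-45409484, plus strand, exon 2): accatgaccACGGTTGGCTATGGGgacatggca
Kcnc1 (chr7:46427964-46427996, plus strand, exon 2): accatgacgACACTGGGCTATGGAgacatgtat
Kcnc4 (chr3:107447790-107447822, minus strand, exon 2): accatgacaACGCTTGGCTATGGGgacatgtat
Kcng4 (chr8:119625901-119625933, minus strand, exon 3): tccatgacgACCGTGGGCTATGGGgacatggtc
Kcnma1 (chr14:23528404-23528436, minus strand, exon 8): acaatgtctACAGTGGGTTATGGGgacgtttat
Kcnn1 (chr8:70850648-70850680, minus strand, exon 4): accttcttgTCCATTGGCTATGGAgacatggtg

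The Kcnj11 and Kcnj8 filters carry a phenylalanine codon, TTC or TTT, as the last but one codon, where the other filters shown carry the tyrosine codon TAT. The Kcnn1 filter opens with the serine codon TCC, and all others shown open with a threonine codon. Kcnc1 and Kcnc4 were identical over 29 of 33 bases, and Kcnj11 and Kcnj8 over 26 of 33.

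The same pattern was searched in frame along the longest coding sequence of every gene: a threonine, serine or cysteine codon, any codon, a glycine codon, a tyrosine, phenylalanine or leucine codon, and a glycine codon. The planned pattern was narrower, with threonine first and tyrosine or phenylalanine between the glycines. The wider pattern was found in all 30 Kv pore genes, all 15 Kir genes, all 8 ion-activated genes and all 10 modifier genes. It was found exactly 2 times in each of the 14 K2P genes, whose subunits carry a pair of pore domains. A pair of matches was also found in 2 Kv pore genes, Kcnh2 and Kcna6. Of the 17 accessory genes 3 held a match, all of them Kv beta genes, whose products are cytoplasmic and form no pore. Of 21772 protein-coding genes outside the family, 1245 (5.72%) held a match. Some members matched only through the added codons. These were serine in Kcnj14, Kcnn1, Kcnn2, Kcnn3 and 7 Kcnh genes, and cysteine with leucine in the Kv beta genes. Leucine gave 1 of the matches in each of Kcnk1, Kcnk6 and Kcnk7. The counts therefore describe the members and do not test the pattern. A match describes letters and is not by itself a pore.

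Few of the 94 genes reached an appreciable level. Detected here means at least 1 TPM (a transcript level scaled for length and depth) in both libraries. This held for 17 members, or 18.1%, against 10063 (45.7%) of the nuclear protein-coding genes. The 9 members with a mean of at least 10 TPM held 82.1% of the family's mean TPM. A further 27 members had means from 0.1 to under 1 TPM, and 31 had means above 0 and under 0.1 TPM. Expected counts of 0 in both libraries were found for 17 members, and 4 of these (Kcnj5, Kcnh3, Kcnj6 and Kcnh8) had counts in the second deposited quantification. A count of 0 allows up to 3 counts per library, as counting error only.

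The family summed to 281 TPM in replicate 2 and 257 TPM in replicate 1 (mean 269 ± 16.7 TPM, SD, n = 2). Kv pore genes took 40.4% of that sum in replicate 2 and 35.5% in replicate 1. Kir genes took 36.0% in replicate 2 and 35.5% in replicate 1. Together these classes therefore supplied most of the family's transcripts in each library. Ion-activated genes took 12.8% in replicate 2 and 10.7% in replicate 1. Accessory genes took 7.39% in replicate 2 and 10.7% in replicate 1. Modifier genes took 2.73% in replicate 2 and 6.89% in replicate 1, the widest relative gap between the libraries among the 6 classes. The 14 K2P genes together held 0.645% in replicate 2 and 0.704% in replicate 1.

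**Figure D1:**
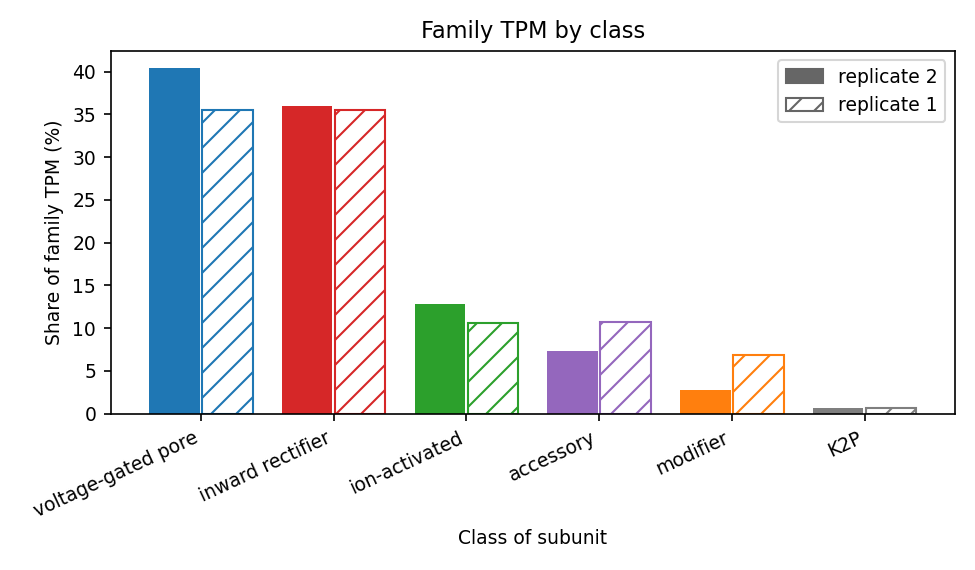
Share of the family's summed TPM (vertical axis, %) held by each class of subunit in replicate 2 (solid bars) and replicate 1 (hatched bars). Kv pore and Kir genes hold at least 35.5% each in both libraries, and the modifier share is 2.73% in replicate 2 and 6.89% in replicate 1.

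**Figure D2:**
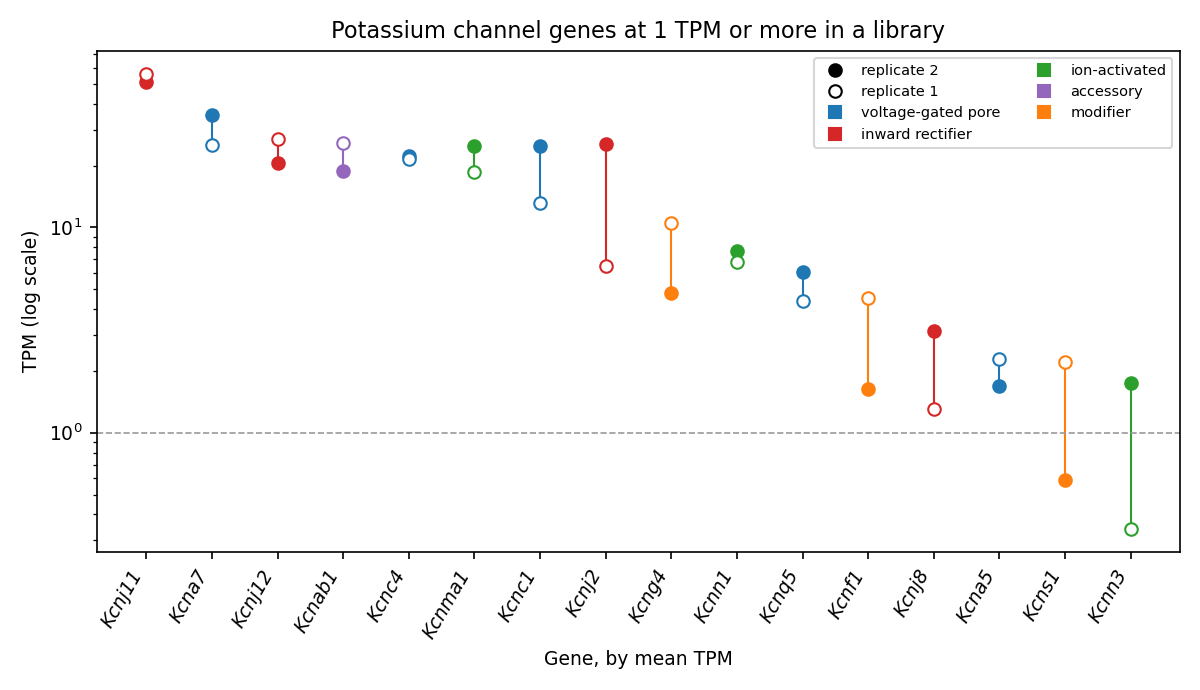
TPM on a log scale for 16 genes at 1 TPM or more in a library, in order of mean TPM. Filled points are replicate 2, open points are replicate 1, colours give the class and the dashed line marks 1 TPM. Kcnj11 leads in both libraries, and the longest lines join the points of Kcnj2, Kcns1 and Kcnn3.

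Differences between the libraries were tested on expected counts with a 2-sided exact binomial test over the 14959 genes whose counts averaged 10 or more. Calls needed a 2-fold difference and an adjusted p under 0.05 (Benjamini-Hochberg, over all tested genes). The test sets 1 library against another, so its error is that of counting alone. Of the 94 members 41 could be tested, and 53 had too few counts. The call was made for 10 of the 41 (24.4%), against a background of 6.18% of all tested genes (924 genes). In replicate 2, 5 members were higher (Kcnj2, Kcnn3, Kcnq3, Kcnj8 and Kcnj15), against 4.47% of all tested genes. In replicate 1, 5 members were higher (Kcng4, Kcnf1, Kcns1, Kcnab2 and Kcnh7), against 1.7% of all tested genes. The median log2 ratio of replicate 2 over replicate 1 was 0.23 over the 41 members and 0.01 over all tested genes. The median size of that ratio, whatever its sign, was 0.50 over the members and 0.21 over all tested genes. Scaling by spike-in counts gave 9 members higher in replicate 2 and 3 higher in replicate 1, and ended the calls of Kcng4 and Kcnab2. Kcnj15 lost its call with no filter on low counts, and edgeR's exact test kept only Kcnj2, Kcnn3, Kcnq3 and Kcns1.

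**Figure D3:**
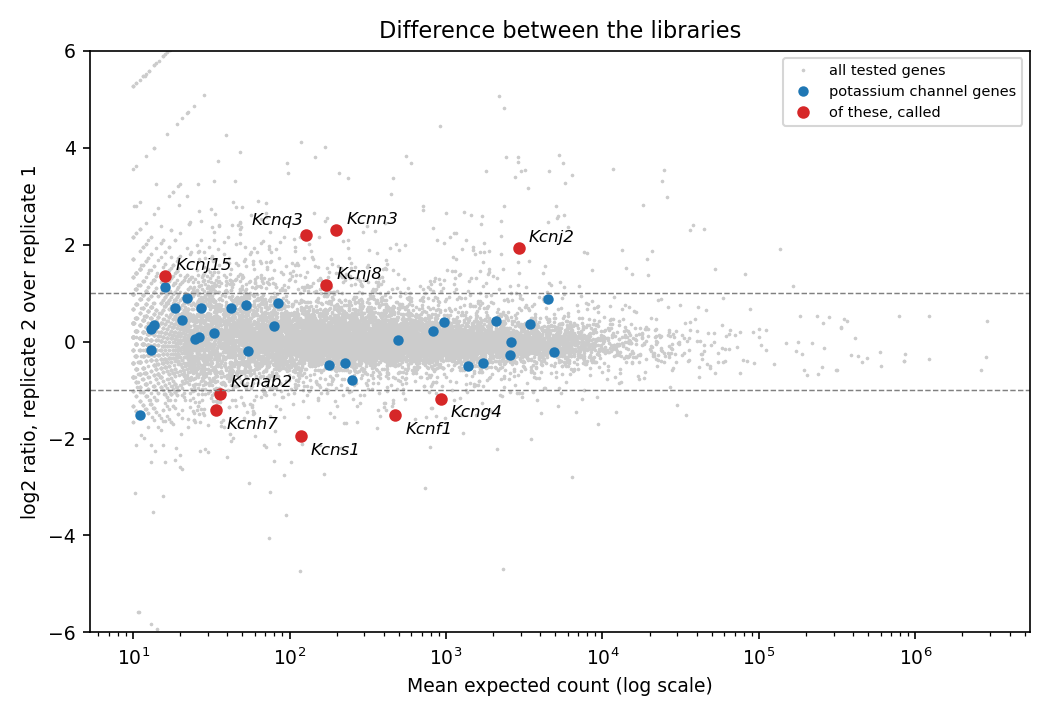
Log2 ratio of TMM-scaled counts, replicate 2 over replicate 1 (vertical axis), against mean expected count (log scale). Grey points are all tested genes, of which 34 lie beyond the axis limit of 6, blue points are potassium channel genes and red points are the 10 called. The dashed lines mark 2-fold, and the called genes lie on both sides, 5 above and 5 below.

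The libraries also differed in the RNA of their slow fibres. The 8 genes of the slow fibre list were all called higher in replicate 2, with a median of 10.8-fold, and summed to 2125 TPM in replicate 2 and 192 TPM in replicate 1. Genes of the fast fibre list summed to 69922 TPM in replicate 2 and 89851 TPM in replicate 1, so fast fibre RNA far outweighed slow fibre RNA in both libraries. Of the 8 fast fibre genes 1 was called, Myh1, which was 2.20-fold higher in replicate 2 although the list's sum was lower there. Smooth muscle and pericyte genes summed to 166 TPM in replicate 2 and 117 TPM in replicate 1, with 1 of 8 called. Endothelial genes summed to 59.2 TPM in replicate 2 and 39.9 TPM in replicate 1, with 2 of 7 called. Schwann cell genes summed to 31.0 TPM in replicate 2 and 21.3 TPM in replicate 1, with 3 of 7 called. Adipocyte genes summed to 129 TPM in replicate 2 and 92.2 TPM in replicate 1, with 2 of 5 called, all higher in replicate 2. Neuronal genes summed to 2.38 TPM in replicate 2 and 1.65 TPM in replicate 1. Of the 2 neuronal genes with enough counts, Stmn2 was called higher in replicate 2 (1.72 TPM in replicate 2 and 1.03 TPM in replicate 1), and Rbfox3, Snap25, Elavl4 and Nefl were each at or under 0.05 TPM. None of the macrophage, fibroblast or satellite cell genes was called, nor was the only T cell gene of 5 with enough counts to test. Heart genes summed to 73.2 TPM in replicate 2 and 5.88 TPM in replicate 1. Of these 2 genes Nppa had no counts in either library, so the sum is that of Myh6 alone. Myh6 was called 11.4-fold higher in replicate 2. Brain genes summed to 6.59 TPM in replicate 2 and 9.26 TPM in replicate 1, and the only 1 tested was not called. The part of these differences in the channel genes' differences was not tested. In bulk tissue, fewer cells of a type and less RNA per cell cannot be told apart.

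The single gene with the highest TPM of the family was the inward rectifier Kcnj11, the pore subunit of the muscle ATP-sensitive channel. It had 51.0 TPM in replicate 2 and 56.2 TPM in replicate 1 (4851 and 4954 expected counts), which placed it at rank 1000 of the nuclear protein-coding genes by mean TPM. The libraries differed little, 1.16-fold higher in replicate 1 (95% counting interval 1.11 to 1.20), and the gene was not called. Spike-in scaling left almost no difference, with a log2 ratio of replicate 2 over replicate 1 of 0.0098. Kcnj8, the related pore subunit best known from vascular smooth muscle, had 3.12 TPM in replicate 2 and 1.30 TPM in replicate 1 (245 and 96 expected counts). It was called 2.25-fold higher in replicate 2 (interval 1.77 to 2.88, exact binomial test, adjusted p = 2.1e-11). Kcnj11 exceeded Kcnj8 16.3 times in replicate 2 and 43.2 times in replicate 1 by TPM. Of the 8 smooth muscle and pericyte genes only Cnn1 was called, and their part in the Kcnj8 difference was not tested.

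Kcnj2, whose human counterpart is mutated in a form of periodic paralysis, showed the most counts behind any call. It had 25.6 TPM in replicate 2 and 6.49 TPM in replicate 1 (4724 and 1095 expected counts), and was 3.81-fold higher in replicate 2 (interval 3.57 to 4.07). Only 1.93% of all tested genes had a larger difference in either direction. Kcnj12, a close relative that also forms strong inward rectifiers, had 20.5 TPM in replicate 2 and 26.8 TPM in replicate 1, and was not called at 1.35-fold higher in replicate 1. Kcnj2 was thus 55.5% of the Kcnj2 and Kcnj12 sum in replicate 2 and 19.5% in replicate 1. The order of these genes turned round between the libraries. Kcnj16, which lies 38.2 kb from Kcnj2 on chromosome 11, had 0.02 TPM in replicate 2 and 0.01 TPM in replicate 1.

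Kcnj15 was called on few reads, with 24 expected counts in replicate 2 and 8 in replicate 1, 2.56-fold higher in replicate 2 (interval 1.15 to 6.82, exact binomial test, adjusted p = 0.039). Its level was low in both, at 0.18 TPM in replicate 2 and 0.10 TPM in replicate 1. Kcnj3, a G protein-gated rectifier of heart and brain, had 0.39 TPM in replicate 2 and 0.21 TPM in replicate 1 and was not called. The other Kir genes with counts (Kcnj10, Kcnj13, Kcnj14 and Kcnj16) stood at or under 0.12 TPM in each library, and Kcnj1, Kcnj4, Kcnj5, Kcnj6 and Kcnj9 had no counts.

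Voltage-gated pores were led by Kcna7, a Kv1 subunit known from skeletal muscle and heart. It had 35.3 TPM in replicate 2 and 25.2 TPM in replicate 1 (2541 and 1660 expected counts), 1.35-fold higher in replicate 2 (interval 1.27 to 1.44) and not called. Among the other Kv1 genes only Kcna5 was detected, at 1.69 TPM in replicate 2 and 2.28 TPM in replicate 1. Kcna2 had 0.72 TPM in replicate 2 and 0.75 TPM in replicate 1, and Kcna1, mutated in a human episodic ataxia with muscle twitching, had 0.83 TPM in replicate 2 and 0.55 TPM in replicate 1. Kcna4 had no counts. Kcna5, Kcna1 and Kcna6 lie side by side on chromosome 6, and Kcna3, Kcna2 and Kcna10 on chromosome 3, so neighbours in a cluster differed in level.

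The Kv3 genes encode channels that open at strong depolarisation and close fast. Kcnc4 differed little between the libraries, with 22.4 TPM in replicate 2 and 21.7 TPM in replicate 1 (2764 and 2439 expected counts). Its scaled counts differed 1.00-fold (interval 0.947 to 1.06). Kcnc1 had 24.9 TPM in replicate 2 and 13.2 TPM in replicate 1 (6107 and 2932 expected counts). At 1.84-fold higher in replicate 2 (interval 1.76 to 1.92) it lay under the 2-fold limit and was not called. Kcnc1 over Kcnc4 was 1.11 by TPM in replicate 2 and 0.611 in replicate 1. Kcnc2 had 0.15 TPM in replicate 2 and 0.01 TPM in replicate 1.

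Kcnb2, a delayed rectifier gene, was at 0.02 TPM in replicate 2 and 0.00 TPM in replicate 1. Of the Kv7 genes, whose channels open slowly near rest, Kcnq5 had 6.06 TPM in replicate 2 and 4.38 TPM in replicate 1 and was not called. Kcnq3, which in neurons forms M-current channels with other Kv7 subunits, had 214 expected counts in replicate 2 and 41 in replicate 1. It was called 4.57-fold higher in replicate 2 (interval 3.29 to 6.60, exact binomial test, adjusted p = 7.5e-24), at a level of only 0.69 TPM in replicate 2 and 0.24 TPM in replicate 1. Kcnq1, the cardiac Kv7 gene, had 0.24 TPM in replicate 2 and 0.10 TPM in replicate 1. Kcna3, Kcna6 and Kcna10 of the Kv1 genes stood at or under 0.16 TPM.

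Kv4 and EAG genes were all under 0.5 TPM. The 3 Kv4 genes (Kcnd1, Kcnd2 and Kcnd3), which carry transient currents in heart and neurons, summed to 0.13 TPM in replicate 2 and 0.14 TPM in replicate 1, led by Kcnd3 at 0.06 TPM in replicate 2 and 0.07 TPM in replicate 1. Kcnh2, the cardiac hERG gene that has also been tied to muscle atrophy in mice, led the EAG genes with 0.47 TPM in replicate 2 and 0.25 TPM in replicate 1. Kcnh7 had 20 expected counts in replicate 2 and 48 in replicate 1 and was called 2.67-fold higher in replicate 1 (interval 1.58 to 4.84, exact binomial test, adjusted p = 0.00061). It stood at 0.07 TPM in replicate 2 and 0.16 TPM in replicate 1. Kcnh1, Kcnh4, Kcnh5 and Kcnh6 were at or under 0.02 TPM, and Kcnh3 and Kcnh8 had no counts.

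Kcnma1, the large-conductance (BK) calcium-activated channel, had 24.8 TPM in replicate 2 and 18.6 TPM in replicate 1 (4076 and 2803 expected counts), and was not called at 1.28-fold higher in replicate 2. Of the small-conductance (SK) genes, Kcnn1 was even, with 7.66 TPM in replicate 2 and 6.79 TPM in replicate 1 (1.02-fold, interval 0.896 to 1.16). Kcnn3, known for its expression in immature and denervated muscle, was not even. It had 1.75 TPM in replicate 2 and 0.34 TPM in replicate 1 (335 and 60 expected counts), and was 4.90-fold higher in replicate 2 (interval 3.74 to 6.60, exact binomial test, adjusted p = 4.3e-39), the widest called fold of the family. Kcnn3 was 18.6% of the Kcnn3 and Kcnn1 sum in replicate 2 and 4.77% in replicate 1. Kcnn2 had 0.82 TPM in replicate 2 and 0.78 TPM in replicate 1. Kcnn4, the intermediate-conductance channel of blood and endothelial cells, had 0.21 TPM in each. Kcnt2, which led the sodium-activated genes, had 0.26 TPM in replicate 2 and 0.22 TPM in replicate 1, and Kcnt1 stayed at or under 0.20 TPM. The sperm channel gene Kcnu1 had 0.17 TPM in replicate 2 and 0.37 TPM in replicate 1.

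Kcng4, a Kv6 modifier subunit, had 4.81 TPM in replicate 2 and 10.5 TPM in replicate 1 (617 and 1230 expected counts) and was 2.26-fold higher in replicate 1 (interval 2.05 to 2.49, exact binomial test, adjusted p = 1.5e-63). Kcnf1, the Kv5 subunit, had 1.64 TPM in replicate 2 and 4.55 TPM in replicate 1 (266 and 674 expected counts) and was 2.87-fold higher in replicate 1 (interval 2.49 to 3.32, exact binomial test, adjusted p = 5.2e-52). Kcns1, a Kv9 subunit, had 0.59 TPM in replicate 2 and 2.21 TPM in replicate 1 (53 and 182 expected counts) and was 3.86-fold higher in replicate 1 (interval 2.85 to 5.39, exact binomial test, adjusted p = 2.4e-20). So 3 of the 4 modifier genes with enough counts were called, all higher in replicate 1, where the background is 1.7% of all tested genes. Spike-in scaling ended the call of Kcng4, and edgeR's exact test called only Kcns1 of these. The remaining tested modifier, Kcns3, had 0.39 TPM in replicate 2 and 0.20 TPM in replicate 1 and was not called. Under spike-in scaling and in the second quantification, Kcns3 was called higher in replicate 2. Kcng1, Kcng2 and Kcng3 were at or under 0.19 TPM, the Kv8 gene Kcnv2 had 0.03 TPM in each library, and Kcnv1 and Kcns2 had no counts.

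Accessory subunits were represented almost wholly by Kcnab1, a Kv beta gene, with 18.9 TPM in replicate 2 and 25.7 TPM in replicate 1. It was 1.42-fold higher in replicate 1 and not called. Kcnab2 had 0.40 TPM in replicate 2 and 0.95 TPM in replicate 1 and was called on 25 and 47 expected counts, 2.11-fold higher in replicate 1 (interval 1.28 to 3.61, exact binomial test, adjusted p = 0.0075). The BK beta genes were low beside Kcnma1, with Kcnmb1, the smooth muscle subunit, at 0.11 TPM in replicate 2 and 0.09 TPM in replicate 1. Kcne3, described as a partner of the Kcnc4 channel in skeletal muscle, had 0.23 TPM in replicate 2 and 0.08 TPM in replicate 1. Kcne4 led the KCNE genes with 0.44 TPM in replicate 2 and 0.27 TPM in replicate 1. The KChIP genes Kcnip1 to Kcnip4, cytoplasmic partners of Kv4 channels, summed to 0.41 TPM in replicate 2 and 0.31 TPM in replicate 1, led by Kcnip2 at 0.26 TPM in replicate 2 and 0.15 TPM in replicate 1. Kcnab3, Kcne1, Kcne1l, Kcnmb2, Kcnmb3, Kcnmb4 and Kcnrg were at or under 0.14 TPM, and Kcne2 had no counts.

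No K2P gene was detected. Kcnk2, a stretch-sensitive leak channel, was highest with 0.80 TPM in replicate 2 and 0.50 TPM in replicate 1, and Kcnk6 had 0.39 TPM in replicate 2 and 0.51 TPM in replicate 1. Counts were also found for Kcnk1, Kcnk3, Kcnk4, Kcnk5, Kcnk10 and Kcnk13, all at or under 0.31 TPM, which makes 8 of the 14 genes. Kcnk7, Kcnk9, Kcnk12, Kcnk15, Kcnk16 and Kcnk18 had none. The 5 that could be tested were not called. Kcnk2 passed the adjusted p limit but not the 2-fold limit, and was called higher in replicate 2 at a limit of 1.5-fold. Kcnk1 missed the p limit, with 6 expected counts in replicate 2 and 16 in replicate 1 (exact binomial test, adjusted p = 0.051).

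Genes outside the family that build channels with these subunits, or move the ions they act on, were mostly detected. Of 36 such genes listed, 26 were detected and 33 tested, of which 3 were called higher in replicate 2 (9.09%, against 4.47% of all tested genes) and 0 in replicate 1. The median log2 ratio of those tested was 0.01, a signed value that does not measure how even they were. Abcc9, the sulfonylurea receptor of muscle, had 50.8 TPM in replicate 2 and 60.01 TPM in replicate 1, and Kcnj11 over Abcc9 was 1.00 in replicate 2 and 0.937 in replicate 1. Abcc8, the receptor of pancreatic beta cells, had 1.38 TPM in replicate 2 and 1.58 TPM in replicate 1. The pore and receptor genes of the muscle ATP-sensitive channel thus stood at near-equal TPM in both libraries, with Kcnj8 and Abcc8 far lower. Amigo1, a membrane protein that accompanies Kv channels, had 11.1 TPM in replicate 2 and 13.9 TPM in replicate 1.

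Among the BK gamma genes, Lrrc38 had 14.1 TPM in replicate 2 and 20.4 TPM in replicate 1 and was not called. Lrrc52 had 8.37 TPM in replicate 2 and 1.37 TPM in replicate 1 and was called 5.87-fold higher in replicate 2. Lrrc55 had 0.30 TPM in replicate 2 and 0.13 TPM in replicate 1, and Lrrc26 had 0 expected counts in replicate 2 and 1 in replicate 1. The gamma genes thus ranged from near 0 to the level of the detected channel genes. The 4 Kcnmb genes summed to 0.20 TPM in replicate 2 and 0.11 TPM in replicate 1. Lgi1, a secreted protein that acts on Kv1 channels in brain, had 2.85 TPM in replicate 2 and 0.33 TPM in replicate 1 and was called 6.26-fold higher in replicate 2.

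Atp1b1, a beta subunit of the sodium-potassium pump, had 118 TPM in replicate 2 and 18.7 TPM in replicate 1 and was called 6.03-fold higher in replicate 2. The beta subunit Atp1b2 had 146 TPM in replicate 2 and 176 TPM in replicate 1 and was not called. Tmem38a, a cation channel of the sarcoplasmic reticulum, had 513 TPM in replicate 2 and 560 TPM in replicate 1. Scn4a, the muscle sodium channel, had 199 TPM in replicate 2 and 227 TPM in replicate 1, and Clcn1, the muscle chloride channel, had 64.4 TPM in replicate 2 and 81.9 TPM in replicate 1. The detected partner genes not named above include the pump regulator Fxyd1, the membrane anchors Ank2, Ank3 and Dlg1, and the chloride cotransporters Slc12a4 and Slc12a7. All 24 detected partner genes without a call ranged from 0.667-fold to 1.70-fold, replicate 2 over replicate 1.

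The transcript table that matches the gene table shows how much of each gene's TPM lay in transcripts annotated as protein-coding. Of the 19 genes at 1 TPM or more in a library, 13 had several transcripts, and 2 of these had under 60% of their TPM in coding transcripts in both libraries. Kcnab1 was the more extreme. Its only coding transcript, Kcnab1-201, held 16.0% of the gene's TPM in replicate 2 and 13.1% in replicate 1, or 3.03 and 3.36 TPM. The non-coding Kcnab1-204 held 42.8% in replicate 2 and 46.3% in replicate 1, and the short non-coding Kcnab1-203 held 40.9% in replicate 2 and 39.9% in replicate 1. In the second transcript table the coding share was 12.3% in replicate 2 and 10.8% in replicate 1. The gene's TPM therefore overstates the TPM of its annotated coding transcript in both tables. A gene on the same strand, AC113458.1, overlaps Kcnab1 and had 60 counts in replicate 2 and 74 in replicate 1.

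Kcnn3 was split between the coding Kcnn3-201 and Kcnn3-202, a retained-intron transcript. The coding share of TPM was 49.7% in replicate 2 and 48.6% in replicate 1, and 50.5% in replicate 2 and 51.9% in replicate 1 in the second table. The share was thus near-equal in the libraries although the gene's level differed 4.90-fold. Kcnn1 had 94.8% in coding transcripts in replicate 2 and 88.8% in replicate 1.

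**Figure D4:**
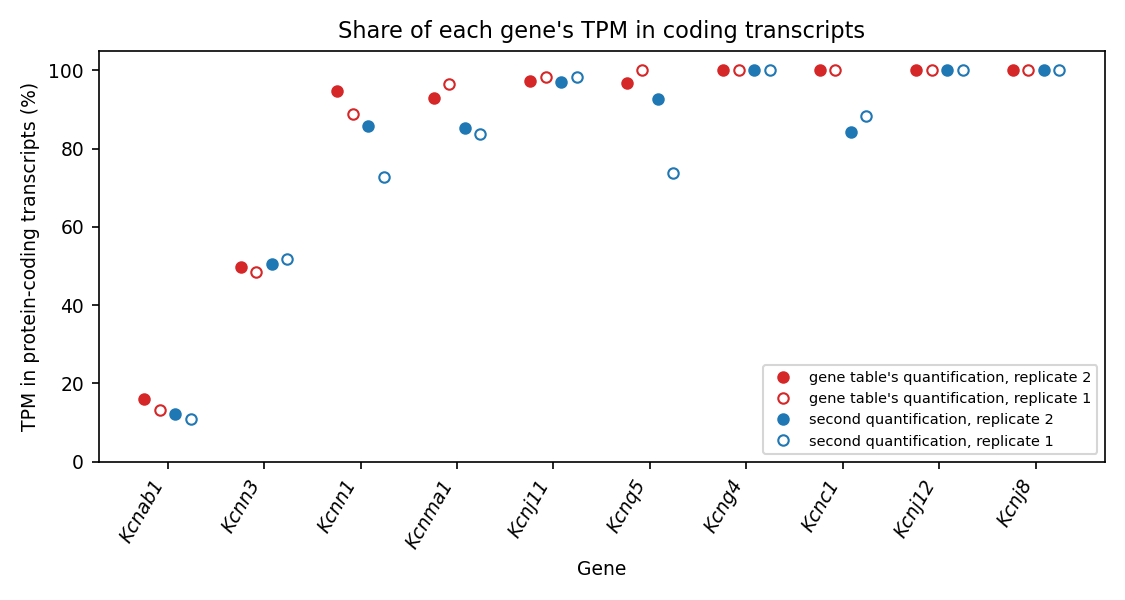
Percent of each gene's TPM in transcripts annotated as protein-coding, for 10 of the genes with several transcripts. Red points are the transcript table that matches the gene table, blue points the second table, filled points replicate 2 and open points replicate 1. Kcnab1 lies lowest at 16.0% in replicate 2 and 13.1% in replicate 1 and Kcnn3 lies near 50%, in both tables.

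Over the 23 genes named by level or by a call, 17 had several transcripts, and in 11 of these a leading transcript held over 50% of the mean TPM. The leading transcript was the same in both transcript tables for 12 of the 17. Kcnj11-205 held 88.9% of Kcnj11 TPM in replicate 2 and 90.4% in replicate 1. Kcnj12-202 held 94.0% of Kcnj12 TPM in replicate 2 and 93.8% in replicate 1. These genes were in effect read as 1 transcript each. Kcnma1 had the most annotated transcripts, 38. Kcnma1-235 led with 49.3% in replicate 2 and 37.5% in replicate 1, and Kcnma1-211 held 15.2% in replicate 2 and 30.3% in replicate 1. The second table gave Kcnma1-211 0% in replicate 2 and 0.662% in replicate 1, so this transcript's share depended on the quantification. For Kcnj8 the tables differed in the leading transcript. Kcnj8-202, which codes for the full 424 residues, held 34.9% in replicate 2 and 62.8% in replicate 1 in the matching table. In the second table it held 80.6% in replicate 2 and 78.2% in replicate 1. By counts of the matching table, Kcnj8-202 had 92.3 in replicate 2 and 62.9 in replicate 1. Kcnj8-201, which codes for 127 residues, had 153 in replicate 2 and 33.1 in replicate 1. The second table gave Kcnj8-202 3.23 TPM in replicate 2 and 1.45 TPM in replicate 1. Which transcript carried most of the Kcnj8 difference thus depended on the table.

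At the gene level the quantifications of the same reads lay close. For the 20 members with a mean of at least 1 TPM in either table, the ratio of the second quantification over the gene table ran from 0.799 to 1.19, with a median of 0.870, after both were rescaled over nuclear protein-coding genes. None differed 2-fold. Without that rescaling the ratios ran from 1.20 to 1.80. The deposited expected counts of all 94 members were whole numbers within 0.001, and only Kcnj14 had a posterior standard deviation above 0, so few of their reads were shared out between genes.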

How the data were processed

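Depth was 44.9 M expected counts in replicate 2 and 40.8 M in replicate 1. Assembly mm10 is named per the labels, and GENCODE M21 per the file lists deposited with each sample. Which aligner and quantifiers were used was not given in the sources used here or in any header. The authors deposited expected counts (estimated counts in the second transcript table), TPM, percent isoform use and a posterior standard deviation score of each count, per the file headers. TPM divides by effective length and sums to the same total in each library.

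The family was picked for description, and its lists were drawn up, with earlier results of these data known. Named genes are members with at least 1 TPM in both libraries, called members, the leading member of each subfamily and the detected or called partner genes; some others are given for range. A few genes and sequences chosen this way are not reported here. Counts were rounded and scaled by TMM (edgeR 4.0.16, R 4.3.3). Binomial p-values came from scipy 1.17.1. Folds use scaled counts + 0.5, and 95% intervals are exact (Clopper-Pearson) without it. The test was checked on simulated data, but no result of that check is given here. With a single group, edgeR's quasi-likelihood test had no contrast to test. DESeq2 1.42.0 size factors, total counts, spike-in counts, other filters and edgeR's exact test were alternatives. Filters were found by translating GENCODE coding sequences, because no protein table was used here. Intervals and floors cover counting error only.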

Additional observations from a re-analysis of the deposited data

Results flagged for a closer look

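The antisense gene Kcnq1ot1 starts with the same letters but is not protein-coding and was left out of every comparison above. It had 1625 expected counts in replicate 2 and 1844 in replicate 1, or 0.51 TPM in replicate 2 and 0.63 TPM in replicate 1, above the 3 counts that a count of 0 allows. Kcnq1, the gene it lies within, had 23 expected counts in replicate 2 and 9 in replicate 1. The other 4 non-coding genes with a Kcn symbol had no counts in either library.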

How the results depend on the processing

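The number of members detected ran from 13 to 22 under the other limits, tables and single libraries. The summed TPM was 601 after rescaling to nuclear protein-coding genes and 365 in the second quantification. Shares of expected counts in place of TPM gave 4.82% for accessory, 30.5% for Kir, 13.3% for ion-activated, 0.520% for K2P and 45.7% for Kv pore genes. The second quantification gave 33.1% for Kir and 0.736% for K2P genes. The 10 calls were the same genes under DESeq2 size factors and total counts, and all 10 were among the 12 called in the second quantification. Spike-in scaling moved the median of all genes by 0.22 on the log2 scale and called 12 members, 9 higher in replicate 2 and 3 in replicate 1, with Kcng4 (log2 ratio -0.95) and Kcnab2 (-0.86) no longer called and Kcnc1 (1.10) called. It turned Kcnj11 to 0.0098, and the second quantification turned Kcnc4 to -0.015. With no filter on low counts 11 were called, with a mean count of at least 100 there were 7, and at 1.5-fold there were 14. edgeR's exact test with the dispersion of the same libraries called 4 (Kcnj2, Kcnn3, Kcnq3 and Kcns1), and 1.82% of all genes. Its dispersion includes the difference tested. Of 161 log2 ratios of named members recomputed, 144 kept their direction and call. For the ratios recomputed from TPM there was no test, so a call there means a 2-fold difference alone. Calls on under 100 counts (Kcnj15, Kcnh7 and Kcnab2) are limited by depth. No paired analysis was possible because the series has 1 group. Leaving out a library left no test between libraries.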
